A study of Arabidopsis thaliana with 4 samples.

Results

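A group of 5 genes known from the egg cell, the gametes and the anther was read in *Arabidopsis thaliana* seedlings in which the transcription factor RKD4 was switched on. The genes were EC1.5 (AT5G64720), EC1.2 (AT2G21740), DME (AT5G04560), HTR10 (AT1G19890) and EMS1 (AT5G07280). They were chosen by name, and each was represented by the probe set (a group of array probes read out as a single signal) that the platform annotation assigned to that gene alone and that had the highest mean over the 4 arrays. All 5 genes were found, among 13355 genes with such a probe set. DME had 3 probe sets and the other genes had 1 each, and HTR10 is listed as MGH3 in the gene table.

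Total RNA of 4 seedling pools of the Col-0 ecotype was hybridised to Affymetrix expression arrays. The control line, 35S-GVG, carried only the activator GVG, a fusion protein that works when dexamethasone is present, behind the 35S promoter, which is active in most plant tissues. The RKD4-inducible line, UAS-RKD4 35S-GVG, carried GVG and, in addition, RKD4 behind the UAS sites to which GVG binds. Both lines grew for 2 days after germination, were moved to 1 µM dexamethasone for 24 h and were harvested as whole seedlings on day 3, with 60 seedlings per pool and 2 pools per line. Dexamethasone and GVG were thus shared by all 4 pools, and no pool without dexamethasone was analysed here. RKD4 action and any other difference between the 2 lines therefore cannot be told apart. The labels do not say whether several independent transgenic lines were used.

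EC1 genes encode small cysteine-rich proteins that the egg cell stores in vesicles and secretes when sperm arrive, which readies the sperm for fusion. HTR10 encodes a histone H3 of the male gamete. DME is a DNA glycosylase that removes methylated cytosine, and in the central cell it opens the maternal copies of imprinted genes. EMS1 is a leucine-rich repeat receptor kinase of the anther that perceives the TPD1 signal and sets the fate of the tapetum, the layer that feeds developing pollen. These genes are known mainly from flowers, whereas the tissue here was the seedling.

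Array medians ran from 175 to 185. The 25th percentile of all values, 32.4, served both as the array floor and as the pseudocount. Between 24.2% and 25.8% of the probe sets of each array read under that floor. Changes below are log2 differences of RKD4-induced over control pools ± SE on the log2(signal + 32.4) scale (n = 2 arrays per group), on which the change of a weak gene comes out too small. The SE is that of limma, which combines the spread of a probe set's own arrays with a variance estimated across all probe sets. With 2 arrays per group, precision is limited throughout. Of the 9 seedling markers (photosynthesis and root hair genes), 6 were measured and none read under the floor, with signals from 337 to 41794. Among them EXPA7, EXPA18 and PORB fell (by 0.83, 0.71 and 0.54 on the log2 scale, adjusted p 0.0126 to 0.0205 in limma). Each of these calls ended in 3 of the 4 fits with an array left out, all but that without control replicate 2, and the part of these falls in the changes below was not tested. RKD4 itself had no probe set assigned to it alone, so the labels could not be checked by its level.

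Of the 5 genes, 2 rose, EC1.5 and EMS1, and none fell past an adjusted p of 0.05 (limma, Benjamini-Hochberg over all 22746 probe sets). Across the array 21.8% of probe sets passed the same test, 10% as rises and 11.8% as falls. The groups did not overlap for EC1.5, EMS1 and DME, against 61.4% of all probe sets. The median change of the 5 genes was 0.0685, against -0.0757 for all probe sets. EC1.2 and HTR10 read under the floor on every array. Because the genes were picked with earlier results of these data known, their count carries no weight of its own.

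**Figure D1:**
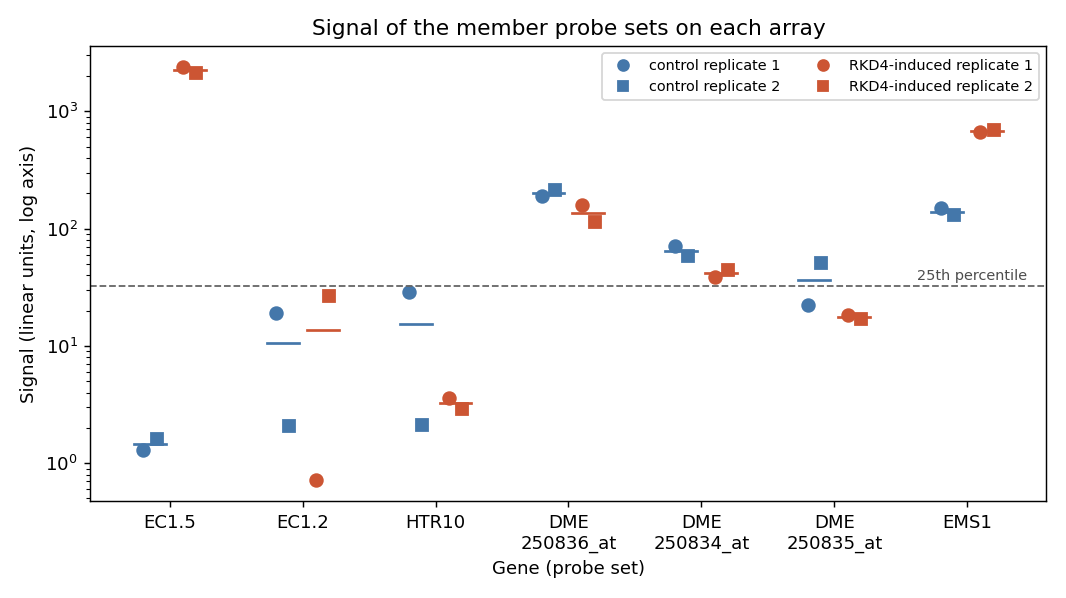
Signal of the 7 probe sets of the 5 genes on each array (log axis), with control arrays in blue, RKD4-induced arrays in orange, circles for replicate 1, squares for replicate 2 and short bars at the group means. The dashed line is the floor at 32.4; EC1.5 goes from under 2 to at least 2106, EMS1 goes from a mean of 139 to 681, and EC1.2 and HTR10 stay below the line on all 4 arrays.

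The egg cell gene EC1.5 showed the widest gap between the groups. Its signal was 1.296 and 1.62 in the control pools and 2402 and 2106 in the RKD4-induced pools. Both control values were at the bottom of the array, above only 2.29% and 3.27% of the probe sets, and both induced values were above 93.9% and 92.8% of them. The groups did not overlap, and within each group the pools differed by 1.25-fold (control) and 1.14-fold (induced). EC1.5 rose by 6.07 ± 0.14 with an adjusted p of 3.34e-05 (limma). Since the control signals lay under the floor, the linear fold is a bound: the induced signal was at least 69.3-fold higher, with control pools set to 32.4. The size on the log2 scale depended on the pseudocount, at 8.34 with the 10th percentile (5.48) and 9.84 with a pseudocount of 1. Its rank by size of the rise among all probe sets depended on the pseudocount too, at 4 with 32.4, 3 with the 10th percentile and 2 with a pseudocount of 1. Of 4878 probe sets with both control signals under the floor, 224 (4.59%) had both induced signals above it, and 5, EC1.5 included, had both induced signals at or above 2106.

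EC1.2, another egg cell gene of the same family, showed no such gap. It read 19.0 and 2.09 in the control pools and 0.714 and 26.5 in the induced pools. The groups overlapped, with the lowest and the highest value both in the induced group. Its change was 0.07 ± 0.32, with a 95% interval from -0.72 to 0.85 and an adjusted p of 0.915 (limma). No fold is given, as both groups were under the floor. The pools of a group lay 9.11-fold (control) and 37.1-fold (induced) apart. Such scatter occurred elsewhere at this level: of the 4347 probe sets under the floor on all 4 arrays, 8.44% had control arrays over 10-fold apart and 9.25% had induced arrays that far apart. The interval bounds the change on a scale that compresses values under 32.4. A change below the floor thus came out too small and could be missed. Of the 5 EC1 genes only EC1.5 and EC1.2 had a probe set of their own, and the other three were not analysed here. Whether EC1.5 and EC1.2 responded differently was not tested.

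HTR10, the sperm histone, also stayed under the floor. It read 28.8 and 2.12 in the control pools and 3.61 and 2.88 in the induced pools. The induced values fell between the control values, so the groups overlapped. The change was -0.37 ± 0.28 (95% interval -1.04 to 0.30) with an adjusted p of 0.403 in limma. A single array set its direction: without control replicate 1 the change was 0.0464, and without control replicate 2 it was -0.78. For comparison, 95% of the probe sets under the floor on all arrays had an absolute change of at most 0.48, and 67 of these 4347 passed the test.

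DME, the demethylating glycosylase, was read above the floor by the probe set with the highest mean, 250836_at. That probe set gave 188 and 214 in the control pools and 159 and 115 in the induced pools. Every induced value was below every control value, as in 37.0% of all probe sets. The change was -0.47 ± 0.19 (95% interval -0.94 to -0.01), with an unadjusted p of 0.0460 and an adjusted p of 0.132 in limma, so it did not pass. Leaving out single arrays moved it between -0.66 (without induced replicate 1) and -0.29 (without induced replicate 2). The other probe sets of DME were not independent samples, since they read the same 4 pools. Probe set 250834_at read 70.4 and 57.8 in control against 38.9 and 44.1 in induced pools, a change of -0.38 ± 0.18 (adjusted p 0.190 in limma). Probe set 250835_at read 22.3 and 50.6 against 18.3 and 17.1, under the floor on 3 of 4 arrays, with a change of -0.43 ± 0.23 (adjusted p 0.251 in limma) that was -0.13 without control replicate 2 and -0.73 without control replicate 1. In all 3 probe sets both induced pools lay below both control pools, and none passed the test. The bounds of the intervals ran from -0.999 to 0.14 on the log2 scale over the 3 probe sets.

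EMS1, the receptor kinase of the anther, was already above the floor in control seedlings. It read 149 and 130 in the control pools and 666 and 696 in the induced pools. Both induced values exceeded both control values, as in 24.4% of all probe sets, and the pools differed by 1.15-fold (control) and 1.04-fold (induced). EMS1 rose by 2.06 ± 0.13 (95% interval 1.73 to 2.38) with an adjusted p of 0.000462 in limma. In linear signal the induced mean of 681 ± 20.8 (SD) was 4.88-fold the control mean of 139 ± 13.9. By the same test 0.963% of all probe sets rose at least 4-fold on the scale with 32.4 added to each signal. That cut is stricter than 4-fold in linear signal, above all for weak genes. EMS1 stood at rank 134 of 13355 genes by size of the rise at the pseudocount of 32.4. Among all probe sets its rank was 205 with 32.4, 268 with the 10th percentile and 366 with a pseudocount of 1. Among 2892 probe sets with a control mean between 100 and 200, 339 rose, and 37, EMS1 included, changed by at least as much as EMS1. In whole seedlings, more cells with a transcript and more transcript per cell cannot be told apart, for EMS1 and EC1.5 alike.

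**Figure D2:**
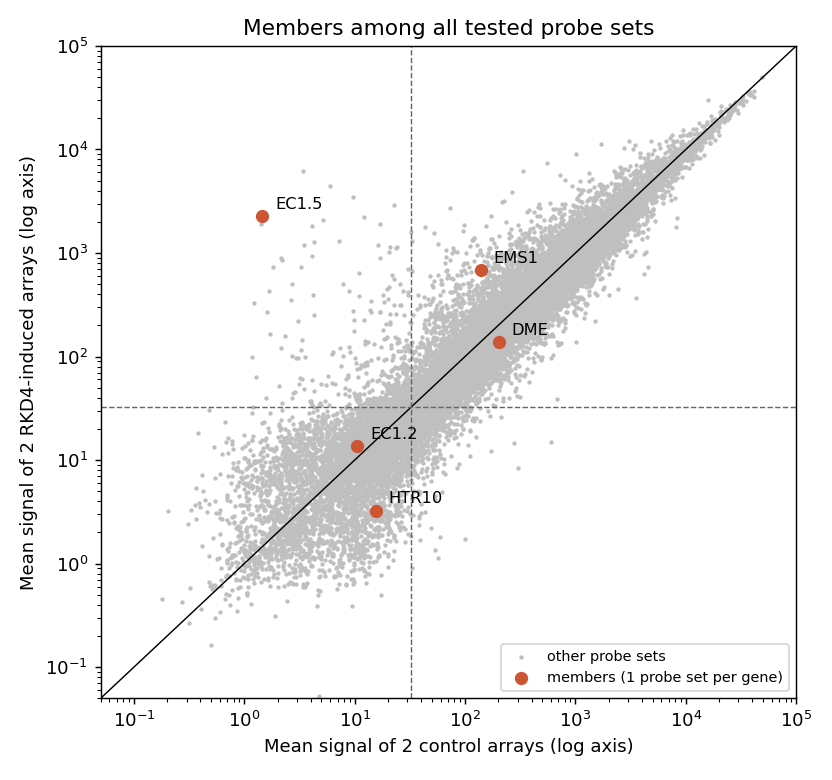
Mean signal of the 2 control arrays (x) against that of the 2 RKD4-induced arrays (y), both on log axes, for all 22746 tested probe sets (grey) and the 5 genes (orange), with dashed lines at the floor of 32.4 and a solid line of equality. EC1.5 stands at the upper left, from 1.46 to 2254; EMS1 lies above the line of equality, DME slightly below it, and EC1.2 and HTR10 lie in the cloud under the floor in both groups.

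Genes known to act with or beside these 5 were taken from lists that were written with earlier results in view. The counts for these lists stand beside 10% of all probe sets called as rises and 11.8% as falls. Under the floor on all 4 arrays calls were rare (67 of 4347 probe sets), so the lack of a call there says little. Among genes of sperm and pollen, 4 of 15 were measured and none passed the test. Besides HTR10 these were the pollen tube receptor kinase genes ANX1 (0.17 ± 0.27) and ANX2 (0.09 ± 0.16), and AT4G39110 (0.22 ± 0.21), and all 4 read under the floor on every array. The summed signal of ANX1, ANX2 and AT4G39110 was 22.6 and 19.5 in control and 49.8 and 22.8 in induced pools. In the histone H3 list 5 of 14 genes were measured and none passed. AT1G75600 (0.25 ± 0.14), AT5G12910 (-0.12 ± 0.26) and AT1G13370 (0.11 ± 0.20) read under the floor on every array, as HTR10 did. AT1G75600 read 1.09 and 0.465 in control and 8.66 and 5.45 in induced pools, and its change was 2.17 with a pseudocount of 1 (adjusted p 0.131 in limma). HTR12, the centromeric histone H3, was picked after its values were seen, as the measured member that read above the floor on every array, at 127 and 145 in control and 154 and 125 in induced pools, with a change of 0.03 ± 0.18.

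In the list of female gametophyte and endosperm genes 4 of 16 were measured and none passed, with a median change of -0.43. AGL62, a MADS-box gene that delays cell wall formation in the endosperm, read 27.4 and 25.1 in control and 53.8 and 44.9 in induced pools (0.48 ± 0.17, adjusted p 0.103 in limma). The central cell genes AGL80 and AGL61 lay at -0.44 ± 0.23 and -0.42 ± 0.25. AGL80 read above the floor on every array, with both induced values below both control values. AGL61 read under the floor on 3 of 4 arrays, and its groups overlapped. With a pseudocount of 1 the changes were 0.88 for AGL62, -0.69 for AGL80 and -0.996 for AGL61. Leaving out single arrays moved AGL80 between -0.69 (without induced replicate 2) and -0.18 (without induced replicate 1), and AGL61 between -0.68 (without induced replicate 1) and -0.17 (without induced replicate 2).

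In the list of DNA demethylation and methylation genes 3 of 14 were measured, and 1 rose. AT3G14890, which the gene table names by locus alone, read 311 and 331 in control and 1143 and 1151 in induced pools. Its groups were far apart against a spread of at most 1.07-fold within a group. It rose by 1.74 ± 0.11 with an adjusted p of 0.000392 in limma, in a list where DME did not pass. AT3G48425, the third measured gene, lay at -0.27 ± 0.18.

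Of 29 genes of the EMS1 pathway and the anther 8 were measured, of which 1 rose (EMS1) and 1 fell, with a median change of -0.19. The gene that fell was AMS, a bHLH transcription factor of the tapetum, which read 39.6 and 48.7 in control and 13.2 and 2.50 in induced pools. It fell by 0.94 ± 0.20 with an adjusted p of 0.0217 in limma, but both induced values were under the floor and the call ended in each fit with 1 array left out (adjusted p 0.0536 to 0.117). With a pseudocount of 1 its change was -2.67. The anther glutaredoxin genes ROXY2 (-0.91 ± 0.38) and ROXY1 (0.48 ± 0.17) did not pass, and 4 of the 8 read under the floor on every array. The summed signal of the 7 anther genes other than EMS1 was 262 and 314 in control and 213 and 254 in induced pools. The separation of these sums depended on the genes included: without ROXY2 they were 209 and 203 in control and 203 and 205 in induced pools, and overlapped. The sums without ROXY2 still held ROXY1, which read 122 and 104 in control and 165 and 175 in induced pools. This offset lower induced values of AMS and of AT1G06170 (24.5 and 29.6 in control, 4.76 and 18.1 in induced pools). AT1G06170 read under the floor on every array and did not pass (adjusted p 0.165 in limma). AT2G31210, AT5G07230 and SPL also read under the floor on every array, and their groups overlapped. Sums without both ROXY genes were not tested. The genes of EMS1's ligand TPD1 and of the co-receptors SERK1 and SERK2 were not analysed here. BRL1, a brassinosteroid receptor of the kinase family to which EMS1 belongs, was the other measured gene of 6 and lay at 0.35 ± 0.21 (adjusted p 0.302 in limma).

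In the MIKC* MADS-box list and in the meiosis list 1 gene each rose, against 10% of all probe sets called as rises. These genes were too few to speak for either group. All 6 genes of the MIKC* MADS-box list, several of which act in maturing pollen, were measured, and AGL65 alone passed. It read 51.1 and 51.7 in control and 331 and 405 in induced pools and rose by 2.25 ± 0.17 (adjusted p 0.000779 in limma). AGL94 (-0.17 ± 0.17), AGL30 (-0.12 ± 0.26) and AGL66 (0.11 ± 0.28) did not pass. Of the 6, 3 were under the floor on every array, namely AGL94, AGL104 and AGL67. AGL30 and AGL66 were under it on 2 arrays each. SDS, a cyclin-like gene of meiosis and 1 of 2 measured meiosis genes of 5, read 46.3 and 33.1 in control and 150 and 124 in induced pools. SDS rose by 1.23 ± 0.20 (adjusted p 0.00843 in limma), and this call ended without control replicate 2, induced replicate 1 or induced replicate 2 (adjusted p 0.0552, 0.0722 and 0.0522). ATSPO11-1, which encodes a protein that starts meiotic recombination, lay at 0.23 ± 0.21 and read under the floor on 3 of 4 arrays.

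**Figure D3:**
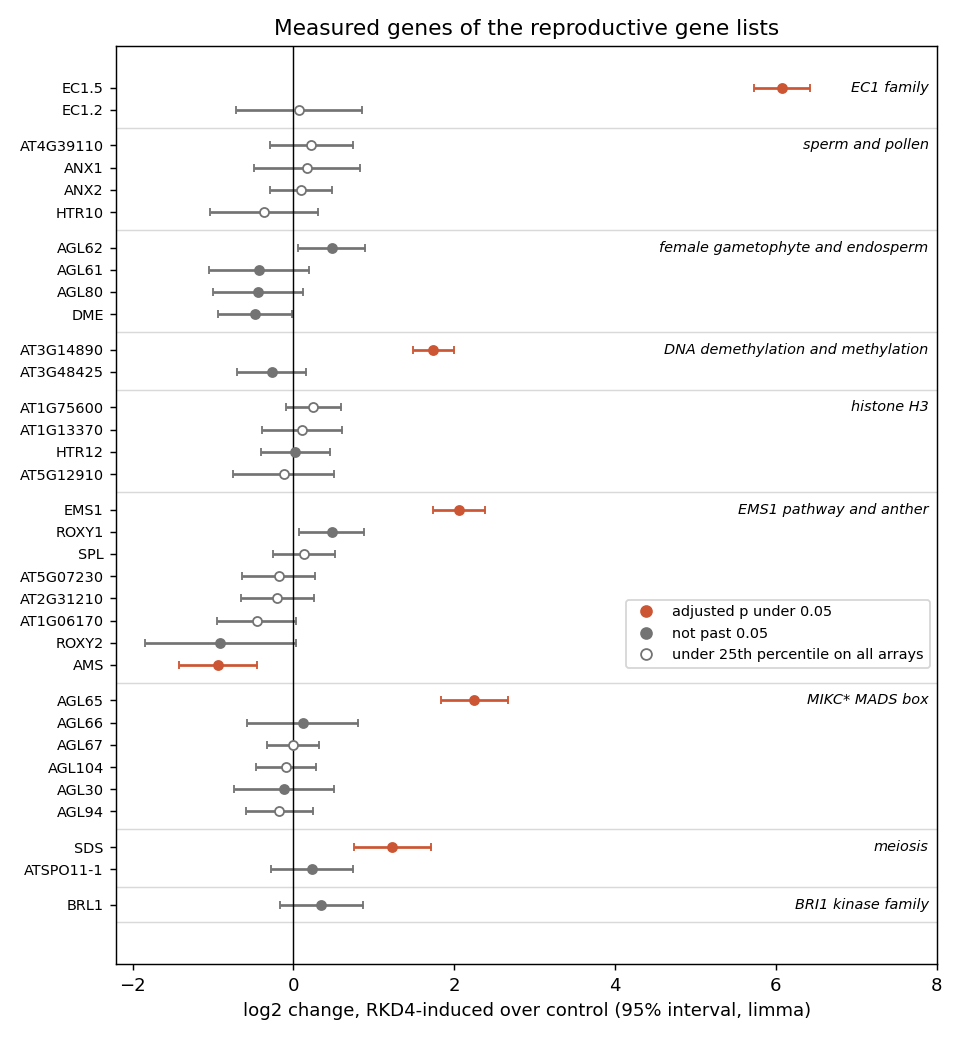
Change of each measured gene of the 9 lists, as log2 of RKD4-induced over control with its 95% interval from limma, in orange where the adjusted p was under 0.05, in grey otherwise, and as an open circle where all 4 arrays read under the floor. A gene that stands in several lists is drawn once, in the first of them. EC1.5, AT3G14890, EMS1, AGL65 and SDS lie to the right of 0 and AMS to the left, and the other intervals lie around or next to 0.

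The genes whose pattern over the 4 arrays was most like that of EC1.5 or EMS1 were found by the distance between profiles, each centred on its own mean on the log2(signal + 32.4) scale. Nearest to EC1.5 were AT4G00920 (distance 0.238), AT5G48350 (0.302) and AT3G54310 (0.426). AT4G00920 read 0.772 and 2.05 in control and 2022 and 1790 in induced pools, and the control signals of the other two were under the floor as well. Nearest to EMS1 were AT4G01575 (0.0347), AT3G48440 (0.0568) and AT1G49000 (0.0914). AT4G01575 read 172 and 152 in control and 742 and 775 in induced pools. All 6 are named by locus alone in the gene table, and with 4 arrays in 2 groups the measure mostly reflects the size of the change.

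None of the nearest measured genes on either side of EC1.5 or EMS1 passed the test. Directly beside EC1.5, AT5G64710 lay at 0.30 ± 0.20 and AT5G64730 at 0.00292 ± 0.13. Beside EMS1, AT5G07260 (-0.11 ± 0.19, with 1 unmeasured gene between) and AT5G07330 (-0.22 ± 0.17, with 7 between) did not pass. AT5G07260 read under the floor on all 4 arrays, where a change came out too small and calls were rare (67 of 4347 probe sets). The genes directly beside DME were AT5G04550 (0.23 ± 0.13) and SIR, the sulfite reductase gene (0.33 ± 0.14). Of the 10 neighbours of the 5 genes none passed an adjusted p of 0.05 in limma, against 21.8% of all probe sets. The neighbours of EC1.2, AT2G21690 and AT2G21780, read under the floor on 4 and 3 arrays. Whether the rises were local to EC1.5 and EMS1 was not tested. The closest neighbour to the cutoff was AT1G19900, directly beside HTR10, which read 242 and 197 in control and 312 and 431 in induced pools (0.67 ± 0.19, adjusted p 0.0544 in limma).

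**Figure D4:**
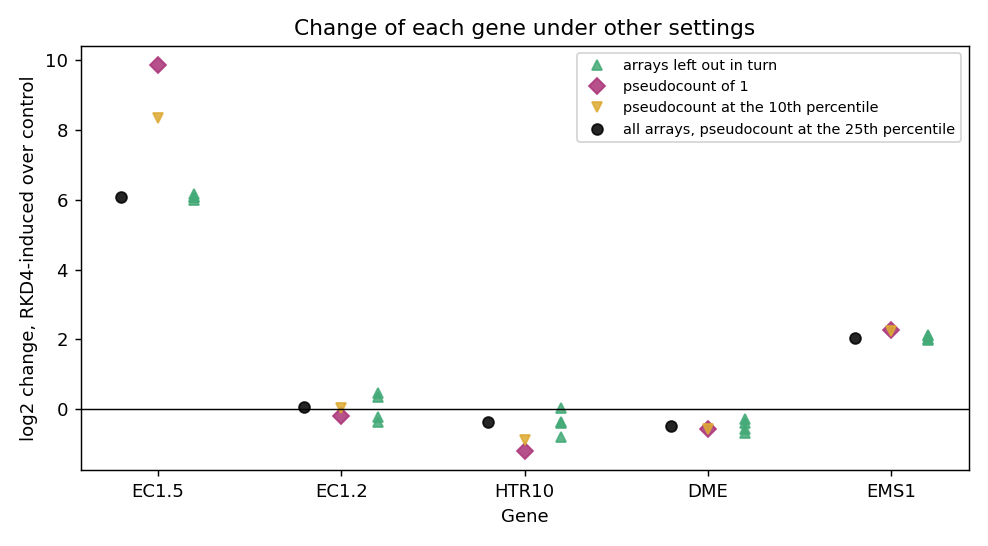
Change of each of the 5 genes (log2 of RKD4-induced over control) with all arrays and the pseudocount of 32.4 (black circle), with pseudocounts at the 10th percentile (yellow triangle) and of 1 (purple diamond), and with each array left out in turn (green triangles). EC1.5 ranges from 5.98 to 9.84 and EMS1 from 1.97 to 2.28, both above 0 throughout, DME stays below 0, and EC1.2 and HTR10 have values on both sides of 0.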

How the data were processed

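The authors deposited a linear intensity for each probe set. The submitters' processing notes name GCOS, with version and settings not given in the sources used here, and no detection calls were used. The authors' scaling was kept. Of 22810 probe sets, 64 AFFX controls were left out. Genes were assigned with the platform annotation and the TAIR10.1 gene table: 13513 have 1 gene, 503 several and 8730 none. A linear model with group as its term was fitted to log2(signal + 32.4) over 22746 probe sets in limma 3.58.1 (R 4.3.3) with a variance trend. It has 2 residual degrees of freedom. With 2 arrays a group the smallest two-sided p of an exact permutation test is 0.333, and none was used. Pools are labelled as biological replicates, without a statement that they grew separately, and their spread may be technical. The p-values reflect that spread combined with a variance estimated across all probe sets along mean signal (median prior degrees of freedom 4.12). The genes, lists and tests were chosen with earlier results of these data known. Up to 4 genes per list with the largest absolute change, the 3 nearest profiles and the nearest measured neighbours were named, and HTR12 was added after its values were seen. Alternatives were other scalings, pseudocounts, a filter on dim probe sets, a constant prior variance, replicate as a block, 1 probe set per gene, other thresholds and leaving out each array.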

Additional observations from a re-analysis of the deposited data

How the results depend on the processing

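EC1.5 and EMS1 kept direction and call in all 12 alternatives run for each, and DME stayed below 0 and without a call in all 12. A pseudocount of 1 put EC1.2 at -0.20, and with arrays left out from -0.35 to 0.48. HTR10 ranged from -0.78 to 0.0464 with arrays left out, and lay at -0.89 with the 10th percentile as pseudocount and at -1.19 with a pseudocount of 1. The cause was not tested, and neither EC1.2 nor HTR10 could be fitted under the filter, since both were too dim to be kept. With arrays left out EC1.5 lay between 5.98 and 6.17 and EMS1 between 1.97 and 2.14. The count of 4954 called probe sets (2281 higher, 2673 lower) became 2538 with 1 probe set per gene (fewer tested), 2088 at an adjusted p under 0.01 and 1593 with at least 2-fold. With an array left out it was 1835 to 2223, with the single array of a group taken to scatter like the pair in the other. Median centring gave 2535 higher and 2201 lower. The labels do not say whether same-numbered arrays were handled together. Their deviations correlated at 0.0807, and a shared replicate effect was not tested further. The replicate block raised the count to 6301 and changed no call of the 5 genes. AT1G19900 passed in 6 of 8 alternatives with all arrays (adjusted p 0.0136 to 0.0701). ROXY1 passed under the filter (adjusted p 0.0432), and ROXY2 (0.0149) and SIR (0.0396) with the replicate block. PORB lost its call without the variance trend (adjusted p 0.0509). Among the other genes examined, those that changed sign did so only with an array left out: ANX1 (-0.15 to 0.48), ANX2 (-0.0410 to 0.23), AT5G12910 (-0.47 to 0.22), AT1G13370 (-0.15 to 0.36), AGL30 (-0.36 to 0.13), AGL66 (-0.18 to 0.41), ATSPO11-1 (-0.00682 to 0.47), AT5G64730 (-0.0963 to 0.10) and AT5G07260 (-0.30 to 0.0868). None of these had a call. Weak signal limits EC1.2 and HTR10 on all arrays and EC1.5 in control pools.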
